A study of Mus musculus with 20 samples.

Results

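The liver response to the lowest dose of benzo(a)pyrene (BaP) was read from 10 of the 20 arrays of the series: the 5 whose labels give an exposure to 25 mg/kg (replicates 6 to 10) and the 5 labelled 0 mg/kg (replicates 1 to 5). All animals were male Muta™Mouse of strain 40.6, a transgenic line that carries a bacterial lacZ reporter in every cell for mutation scoring, and were 25 weeks of age. Exposed mice were given BaP by oral gavage every day for 28 days, controls were given the olive oil vehicle alone, and the livers were taken 3 days after the last dose. The 5 arrays at 50 mg/kg (replicates 11 to 15) and the 5 at 75 mg/kg (replicates 16 to 20) are used to ask what belonged to the low dose. Every mouse was therefore a transgenic male of 1 age, and each array holds bulk liver RNA of 1 mouse, so fewer cells of a type and less RNA per cell cannot be told apart.

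BaP is a polycyclic aromatic hydrocarbon. It binds the aryl hydrocarbon receptor, a ligand-activated transcription factor that switches on Cyp1a1, Cyp1a2 and other enzymes of its own metabolism, and the diol epoxide made from it forms bulky DNA adducts that can activate p53. Interferons act through cell surface receptors, JAK kinases and STAT and IRF transcription factors, which bind interferon-stimulated response elements in the promoters of antiviral genes. The products of these genes degrade viral RNA, restrict entry and replication, tag proteins with the ubiquitin-like modifier ISG15, or sense foreign nucleic acid. In liver, hepatocytes, Kupffer cells and endothelial cells all carry such a response, and a basal level of it is present without infection.

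The measured quantity was the log2 ratio of liver (Cy5) over a universal mouse reference pooled from 11 cell lines (Cy3), so a value of 1 means that liver held 2 times the reference signal and differences between arrays are log2 fold changes. Of the 41174 probes, 27346 had a liver signal above the negative controls in at least 4 of 5 arrays of a group, and these covered 12986 named genes. Between 51.9% and 67.5% of spots were well above background on the 10 arrays, the highest share being control replicate 4 (the other controls reached 54.3%, and the exposed arrays spanned 55.5% to 61%). The lowest correlation of any array with its own group was 0.9306. The source name of the samples says lung and the tissue label says liver. All 13 measured hepatocyte markers were well above background on all 10 arrays, and the lung epithelial markers Sftpb, Sftpc and Ager on none. All 5 exposed arrays lay at position 2 of their slide and 4 of the 5 controls at position 1, so dose and slide position can be told apart only through control replicate 2. Values and counts given below with slide position in the model therefore set the 5 exposed arrays against that 1 control. Control and exposed arrays shared 3 slides, and differences within those slides are given beside the main genes. On each of those slides the control lay at position 1 and the exposed array at position 2, so these differences do not separate dose from position.

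Against the controls, no transcript passed an adjusted p under 0.05 together with a fold change above 1.5 at 25 mg/kg (limma, 0 of 27346, 0%). The Fs test with residual shuffling, written after the methods of the study, also called 0. This departs from the study, which reported calls in both directions at this dose under the same limits. The reason for the difference was not tested. The smallest limma adjusted p was 0.14, for Zmym3, a zinc finger protein of chromatin complexes, at -0.49 (SE 0.08). At an unadjusted p under 0.05 there were 2135 transcripts, 1144 higher and 991 lower at 25 mg/kg, where 1367 would be reached with no difference at all. Reduced to 1 probe per gene, 530 of 12986 genes (4.08%) were higher and 505 (3.89%) were lower at that unadjusted level. The 5 exposed arrays lay above all 5 controls for 60 genes (0.462%) and below them for 95 (0.732%). This split depended on the scaling: with signals processed by the scanner software 559 genes were higher and 298 lower, and with the log2 ratios deposited by the authors 537 were higher and 771 lower. The median SD within a group was 0.217 on the log2 scale and the median SE of the comparison 0.135. The limma p-values rest on the spread between mice within groups, pooled over the 4 groups and drawn toward that of other transcripts. Since nothing passed the adjusted threshold in this comparison, the genes below are described by their values and unadjusted p.

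Adamdec1 had the largest difference above control among the named genes whose groups did not overlap. It encodes a secreted metalloproteinase of the ADAM family that is made mainly by macrophages and dendritic cells. On the 5 control arrays its log2 ratio was 3.70, 2.06, 2.92, 3.07 and 3.27, and on the 5 exposed arrays 4.08, 3.85, 5.15, 4.61 and 4.19. Every exposed value exceeded every control value, the nearest pair being 3.85 against 3.70. The mean difference was 1.38 (SE 0.31), a 2.60-fold higher level, with an adjusted p of 0.636 by limma. An exact two-sided permutation test of this gene gave 0.00794, the smallest p that 5 arrays against 5 allow, for a gene that was chosen with its values known. Within the shared slides the difference was 1.54, 1.89 and 0.49. With slide position in the model it was 2.32, which sets the 5 exposed arrays against control replicate 2 alone, the lowest control.

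At the higher doses Adamdec1 stood between the controls and the low dose. Its log2 ratio ranged from 3.27 to 4.40 at 50 mg/kg and from 2.82 to 4.12 at 75 mg/kg, and both ranges overlapped those of the control and the 25 mg/kg arrays. The difference from control was 0.75 at 50 mg/kg and 0.65 at 75 mg/kg. Against the mean of the higher doses the low dose was 0.68 higher (SE 0.26, unadjusted p = 0.0181), and against the mean of the other 3 groups 0.91 higher (unadjusted p = 0.00153), and neither passed the limma adjustment (0.99994 and 0.989). The 11 present members of the ADAM list included 1 other gene at an unadjusted p under 0.05, Adam8, a leukocyte metalloproteinase, at -0.34 (SE 0.15), and at -0.22 without replicate 6, which read -4.87 and lay below all controls. The median of the list was -0.04, beside -0.0087 over all genes. Markers of cells that are known to make Adamdec1 are given for the same arrays. Of the 13 present Kupffer cell markers and the 9 present markers of monocytes and dendritic cells, 0 had an unadjusted p under 0.05. At that level 4.08% of all genes were higher and 3.89% lower. By sign 11 Kupffer cell markers were above control and 2 below, with a median of 0.18. Of the monocyte and dendritic cell markers 5 were above and 4 below, with a median of 0.03. The mean of the Kupffer cell list, relative to the controls, ran from -0.19 to 0.19 in the controls and from -0.04 to 0.45 at 25 mg/kg, and the part of these cells in the Adamdec1 difference was not tested.

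**Figure D1:**
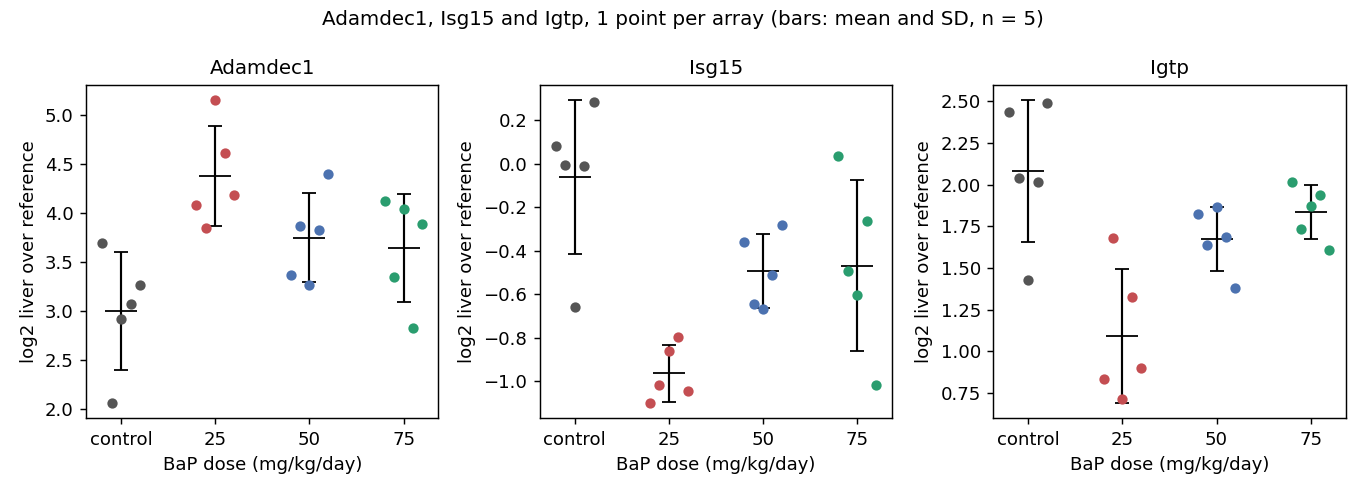
Log2 ratio of liver over reference (y axis) of Adamdec1, Isg15 and Igtp on each of the 20 arrays, by BaP dose (x axis, mg/kg/day). Points are arrays and bars are the group mean and SD (n = 5). Adamdec1 was above all controls on the 5 arrays at 25 mg/kg, Isg15 was below all controls on those 5, and Igtp was below all controls on 4 of them.

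Isg15, Igtp and Oas1c are interferon-induced genes that were lower at 25 mg/kg. Their promoter sequences are shown as the 120 bases upstream of an annotated transcript start in RefSeq (GRCm38.p6), because the response element through which interferon acts on such genes can be read in them. Capitals mark matches to the letters GAAANNGAAA on either strand, the core of that element. Such a match was found in 3.44% of the 32851 RefSeq promoter windows of 250 bases before to 50 bases after a start.
Isg15, chr4:156200819-156200938, minus strand: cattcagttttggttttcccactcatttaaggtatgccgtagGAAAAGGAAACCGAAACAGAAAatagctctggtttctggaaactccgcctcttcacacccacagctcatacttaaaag
Igtp, chr11:58199436-58199555, plus strand: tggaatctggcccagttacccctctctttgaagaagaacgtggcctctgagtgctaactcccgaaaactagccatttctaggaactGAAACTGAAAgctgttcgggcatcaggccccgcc
Oas1c, chr5:120812515-120812634, minus strand: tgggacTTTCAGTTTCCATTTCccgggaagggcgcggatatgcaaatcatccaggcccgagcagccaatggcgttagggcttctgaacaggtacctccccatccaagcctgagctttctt

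Isg15 had 3 overlapping matches, whose first bases lie at -78, -72 and -66 from the start. Igtp had 1, at -34, and Oas1c had 2 on the opposite strand, at -114 and -108. The annotated Oas1c gene reaches to base 120812540, inside the window shown, so its positions are not counted from the outermost start. The Igtp window also held TTCNNNGAA, the palindrome of the interferon gamma-activated site, which 8.3% of all windows hold. Of the 81 interferon response genes present on the arrays, 65 had a promoter entry, and 26 of these (40%) held the GAAANNGAAA match, a gene with several entries being counted once. Among the 19 of them that were lower at 25 mg/kg at an unadjusted p under 0.05 it was 6 of 14 (42.9%), and among the remaining members 20 of 51 (39.2%). A match of letters is a description of the window and not a measured site.

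Isg15 encodes the ubiquitin-like modifier itself. Its log2 ratio was 0.08, 0.00, -0.66, -0.01 and 0.28 on the control arrays and -1.10, -1.02, -0.86, -0.80 and -1.05 on the arrays at 25 mg/kg. The groups did not overlap, and control replicate 3 was the lowest control. The mean difference was -0.90 (SE 0.17), a level of 0.535 times the control mean, with an adjusted p of 0.338 by limma and an exact permutation p of 0.00794. The difference within the 3 shared slides was -0.79, -1.14 and -1.13.

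Igtp encodes an immunity-related GTPase that acts on the vacuoles of intracellular pathogens. The control arrays read 2.44, 2.04, 1.43, 2.02 and 2.49 and the exposed arrays 0.84, 1.68, 0.71, 1.33 and 0.90, so 4 of the 5 exposed values lay below all controls and replicate 7 lay above control replicate 3. The mean difference was -0.99 (SE 0.19, 0.503 times the control mean, limma adjusted p = 0.338, exact permutation p = 0.0159), and within the shared slides it was -0.69, -1.77 and -1.53. Both genes crossed the threshold in 1 setting: without control replicate 3, Igtp was at -1.15 and Isg15 at -1.05, each with a limma adjusted p of 0.0245, and they were the only transcripts called there. Leaving out any other of the 10 arrays left 0 calls.

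Compared with the higher doses, both genes had their lowest group mean at 25 mg/kg. Isg15 ranged from -0.67 to -0.28 at 50 mg/kg, above all 5 arrays at 25 mg/kg, and from -1.02 to 0.03 at 75 mg/kg, where 1 array lay inside the low-dose range. The contrast of 25 mg/kg with the mean of 50 and 75 mg/kg was -0.48 for Isg15 (unadjusted p = 0.00388) and -0.66 for Igtp (unadjusted p = 0.000586). Neither passed the adjustment over all transcripts. Igtp spanned 1.38 to 1.86 at 50 mg/kg and 1.61 to 2.02 at 75 mg/kg.

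Over the whole interferon response, 83 of the 95 listed genes were on the array and 81 were present. At 25 mg/kg 19 of them were lower and 1 was higher than control at an unadjusted p under 0.05, where 3.89% and 4.08% of all genes were, and 0 were called after adjustment by limma. By sign alone 57 were lower and 24 higher, and the median was -0.18 beside -0.0087 over all genes. The mean of the 81 genes on each array, relative to the controls, overlapped between the groups. It ran from -0.18 to 0.22 in the controls and from -0.28 to -0.06 at 25 mg/kg. Only Isg15 and Oas3 had all exposed arrays below all controls (2 of 81, beside 0.732% of all genes). By the exact permutation test Rnf213 (0.198), Rtp4 (0.175) and Uba7 (0.151) did not reach 0.05. Neither did Gbp6 (0.0714), Rsad2 (0.0635), Ifit3, Adar and Oasl1 (0.0556 each), and the other lower genes were under 0.05 by that test. The list was drawn up with earlier results of these data known, so its counts are a description. When 1 array was left out the count of lower genes ranged from 14 to 24. With slide position in the model, control replicate 2 was the only control compared. Uba7, Rtp4 and Rnf213 then took the opposite sign (0.066, 0.018 and 0.19).

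**Figure D2:**
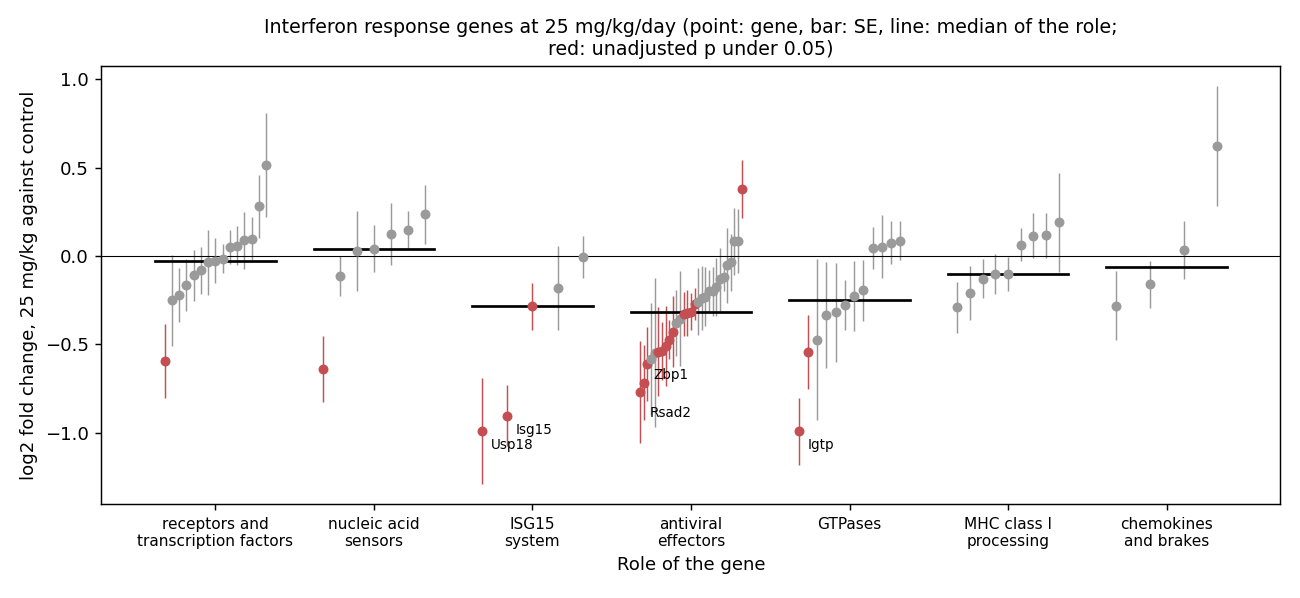
Log2 fold change at 25 mg/kg against control (y axis) of the 81 present interferon response genes, grouped by role (x axis). Points are genes, bars are SE, black lines are the median of each role, and red marks an unadjusted p under 0.05. The red points below 0 lie mostly among the antiviral effectors (12 of 29) and the ISG15 system (3 of 5). None lies among the genes of MHC class I processing. Of all genes 3.89% were lower at that level.

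Among the 15 receptors, kinases and transcription factors, which take up the signal, 1 was lower and 0 were higher at an unadjusted p under 0.05, beside 3.89% and 4.08% of all genes. The lower one was Irf7, the transcription factor that amplifies type I interferon, at -0.59 (SE 0.21). Its log2 ratio was -0.17, 0.01, -0.53, -0.64 and -0.51 in the controls and -0.91, -0.40, -1.37, -0.78 and -1.35 at 25 mg/kg, with 4 of 5 exposed arrays below all controls. Against the mean of 50 and 75 mg/kg, Irf7 was lower at 25 mg/kg (-0.42, unadjusted p = 0.0318). It was at -0.62 against 50 mg/kg alone (unadjusted p = 0.00833) and at -0.23 against 75 mg/kg alone (unadjusted p = 0.297). Stat2 was at -0.25, Irf9 at -0.17 and the receptor chain Ifnar1 at 0.28, with no unadjusted p under 0.05. Of the 7 nucleic acid sensors, Dhx58, the RNA helicase LGP2, was at -0.64 (SE 0.19), and Ifih1, Tlr3, Tlr7, Tlr9, Mavs and Cgas lay between -0.11 and 0.24.

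The ISG15 system, which includes Isg15 itself, was the only one of the 7 roles whose list mean did not overlap between the groups. The gap was narrow, with -0.333 on control replicate 3 and -0.343 on replicate 7 at 25 mg/kg. Isg15 was chosen with its values known, so this separation is not independent of that gene. Usp18, the protease that removes ISG15 and restrains the interferon receptor, was at -0.99 (SE 0.30), with control values of -0.44, -2.11, -2.26, -1.51 and -1.04 against -2.78, -2.05, -2.78, -2.16 and -2.54. The controls themselves were spread widely, and 3 exposed arrays lay below all of them. Uba7, the enzyme that activates ISG15, was at -0.28 (SE 0.13), and the conjugating enzyme Ube2l6 and the ligase Trim25 were at -0.18 and -0.01. Averaged over the 5 present members and set relative to the controls, the system ran from -0.33 to 0.23 on the control arrays and from -0.63 to -0.34 at 25 mg/kg. Its mean ran from -0.22 to 0.05 at 50 mg/kg and from -0.55 to 0.12 at 75 mg/kg. Isg15, Usp18 and Uba7 were also lower at 25 mg/kg than the mean of 50 and 75 mg/kg, at an unadjusted p under 0.05. Against 75 mg/kg alone the unadjusted p was 0.00891 for Isg15, 0.146 for Usp18 and 0.0692 for Uba7.

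Of the 29 antiviral effectors, 12 were lower and 1 was higher than control at an unadjusted p under 0.05, and 26 were below 0. Against control 3.89% of all genes were lower and 4.08% higher at that level. The count of effectors lower than control was 6 with slide position in the model. The median against control was -0.31 at 25 mg/kg, -0.16 at 50 mg/kg and -0.21 at 75 mg/kg. Relative to the mean of 50 and 75 mg/kg, 2 of the 29 were lower and 0 higher at that level, beside 2.53% and 1.55% of all genes. Rsad2, which encodes viperin, was at -0.77 (SE 0.29), Zbp1, a sensor of Z-form nucleic acid that triggers necroptosis, at -0.72 (SE 0.21), and Ifit3, which binds foreign RNA together with Ifit1, at -0.61 (SE 0.21). Lgals3bp, a secreted glycoprotein, had the smallest p of the role. It read 0.83, 1.00, 0.71, 0.77 and 1.32 in the controls and 0.75, 0.51, 0.32, 0.39 and 0.30 at 25 mg/kg, a difference of -0.47 (SE 0.11), with 4 exposed arrays below all controls. Oas3, an activator of RNase L, had non-overlapping groups at a small difference: -0.22, -0.10, -0.02, -0.23 and 0.09 against -0.48, -0.30, -0.34, -0.33 and -0.39, or -0.27 (SE 0.09). The remaining 7 were Cmpk2 (-0.54), Rtp4 (-0.54), Rnf213 (-0.51), Oasl1 (-0.43), Ifi35 (-0.33), the RNA editing enzyme Adar (-0.32) and Oas1a (-0.31). Further probes gave -0.40 and -0.56 for Rsad2, -0.23 for Cmpk2 and -0.07 (SE 0.11) for Adar. Ifitm1, which blocks viral entry, was the exception at 0.38 (SE 0.16), while Ifitm2 and Ifitm3 were at 0.08 and -0.05. The mean of the 29 effectors overlapped between the groups, from -0.29 to 0.30 in the controls and from -0.45 to -0.20 at 25 mg/kg.

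Oas1c, of the same synthetase family but not on the list, was among the 8 largest differences below control with non-overlapping groups. It read -0.10, -0.36, -0.51, -0.18 and 0.33 in the controls and -0.70, -0.63, -0.93, -0.70 and -0.62 at 25 mg/kg, a difference of -0.55 (SE 0.12, limma adjusted p = 0.636). Its difference from control was -0.37 at 50 mg/kg and -0.47 at 75 mg/kg.

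Of the 12 GTPases, Gbp6, a guanylate-binding protein, was at -0.54 (SE 0.21) next to Igtp, and the others ran from -0.47 for Gvin1 to 0.09 for Gbp4. The related GTPases Irgm1, Irgm2, Iigp1 and Tgtp1 were at -0.23, -0.19, -0.28 and -0.33, with no unadjusted p under 0.05. None of the 9 MHC class I genes and none of the 4 chemokines and brakes reached that level against control. At that level 3.89% of all genes were lower and 4.08% higher. Tap1, Psmb9 and B2m were at -0.21, -0.13 and 0.19, and Cxcl9, Cxcl10 and Socs1 at 0.62, 0.03 and -0.28. Relative to the mean of 50 and 75 mg/kg, 10 of the 81 interferon genes were lower at 25 mg/kg at an unadjusted p under 0.05 and 0 were higher, where 2.53% and 1.55% of all genes were. These 10 were Isg15, Usp18, Uba7, Igtp, Gbp7, Irf7, Lgals3bp, Cmpk2, Tap1 and Tapbp. The count was 17 with slide as a fixed block, 16 with slide as a random block, 19 with array weights and 6 without replicate 8 at 25 mg/kg.

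**Figure D3:**
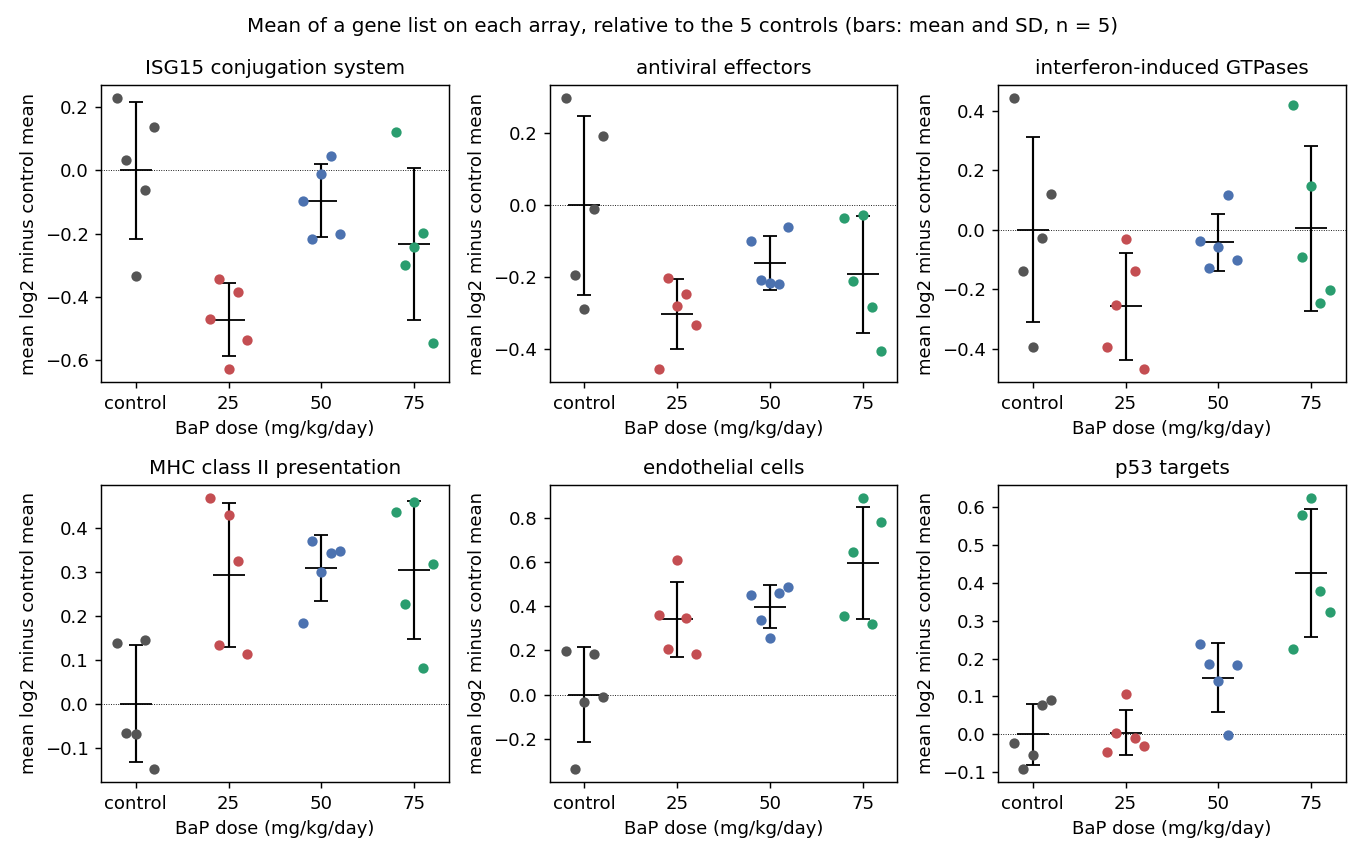
Mean log2 ratio of the present members of 6 gene lists on each array (y axis, relative to the mean of the 5 controls), by BaP dose (x axis, mg/kg/day). Points are arrays and bars are the group mean and SD (n = 5). The ISG15 system, which includes Isg15, was below all controls on the 5 arrays at 25 mg/kg. The antiviral effectors and GTPases overlapped the controls. The p53 target list stayed between -0.05 and 0.11 at 25 mg/kg and reached 0.62 at 75 mg/kg.

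Markers of immune cells were read on the same arrays. They are counted at an unadjusted p under 0.05 against control, where 4.08% of all genes were higher and 3.89% lower. Of 7 present markers listed for plasmacytoid dendritic cells, a main source of type I interferon, 1 was lower (Ccr9 at -0.17), and their defining marker Siglech was not well above background on any of the 10 arrays. Their list mean ran from -0.15 to 0.17 in the controls and from -0.15 to 0.00 at 25 mg/kg. Of 10 present T and NK cell markers 2 were lower, Cd3g at -0.28 and Cd5 at -0.32, and Gzma, Gzmb and Prf1 were not well above background on any array. The T and NK cell mean ran from -0.07 to 0.06 in the controls and from -0.14 to 0.09 at 25 mg/kg. B cell (4 present) and neutrophil (6 present) markers gave 0 in either direction. The part of these cells in the interferon values was not tested.

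**Figure D4:**
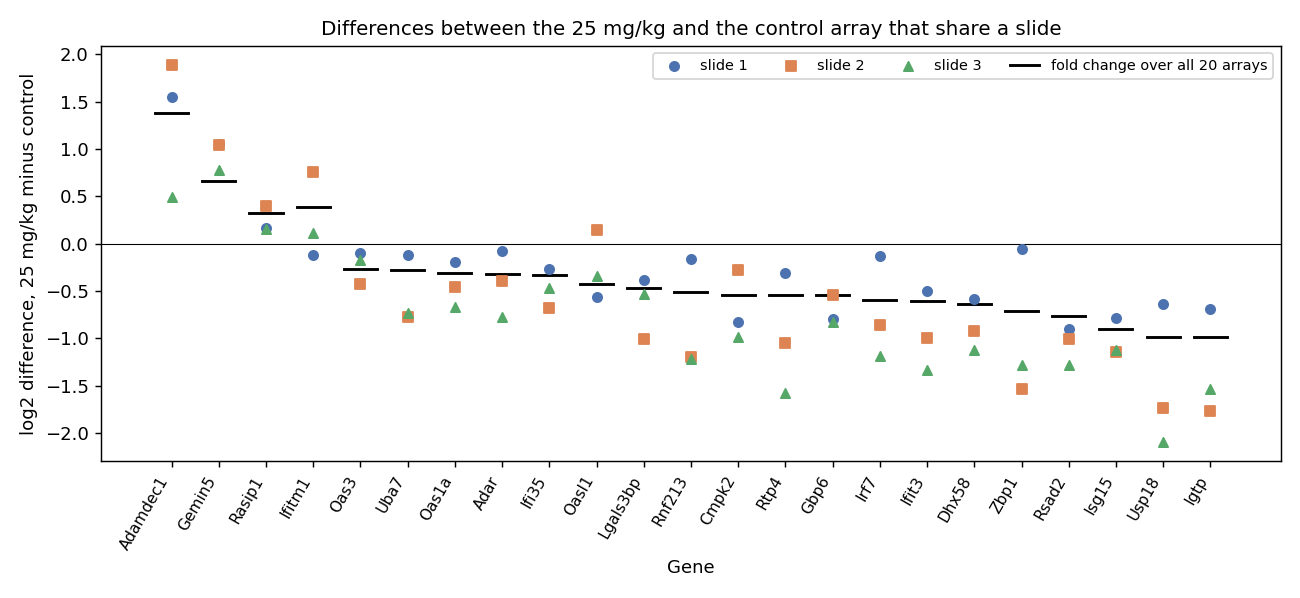
Difference in log2 ratio between the 25 mg/kg array and the control array of the same slide (y axis) for Adamdec1, Gemin5, Rasip1 and the 20 interferon genes at an unadjusted p under 0.05 (x axis). Symbols are the 3 slides that hold both groups and black lines are the fold change fitted over all 20 arrays. Isg15, Usp18, Igtp and Rsad2 were below 0 on all 3 slides, and Oasl1 and Ifitm1 were not on 1 side.

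Of the other transcripts that the study lists for the low dose, none passed the adjustment here, and a list chosen on these samples is not independent evidence of direction. Rasip1, a regulator of endothelial junctions, read 1.00, 0.87, 1.02, 0.99 and 0.75 in the controls and 1.28, 1.48, 1.15, 1.16 and 1.16 at 25 mg/kg, without overlap, at 0.32 (SE 0.09). Its difference from control was 0.67 at 75 mg/kg. Gemin5, the RNA-binding subunit of the SMN complex that assembles spliceosomal particles, depended on the probe. The probe of a cDNA clone was at 0.66 (SE 0.14), with 4 exposed arrays above all controls, and the probe of the reference transcript was at -0.04 (SE 0.08). Among the 9 SMN complex members Gemin8 was at -0.33 and Gemin6 at -0.41, both at an unadjusted p under 0.05, where 3.89% of all genes were lower. A transcript known only by the accession CB588406 was lower on all 5 exposed arrays than on any control, at -0.52 (SE 0.12). Among the low-dose transcripts of the study, Adamdec1, Gemin5 (clone probe) and Rasip1 were higher here, and Igtp, Isg15 and CB588406 were lower. The text of the study reports fewer higher than lower transcripts at this dose.

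The rest of the largest differences with non-overlapping groups lay outside the interferon list. That list holds no MHC class II genes, although interferon gamma is known to induce them. H2-Ab1, the beta chain of an MHC class II molecule, was measured by 3 probes at 0.63 (SE 0.14), 0.54 (SE 0.14) and 0.44 (SE 0.16). On the first probe the controls read 1.26, 1.12, 1.05, 1.29 and 0.80 and the exposed arrays 2.05, 1.45, 1.57, 2.12 and 1.46. H2-Aa, the alpha chain, was at 0.61 (SE 0.19), with a second probe at 0.49. All 7 present members of the class II list were above 0, with H2-DMb1 the third at an unadjusted p under 0.05. At that level 4.08% of all genes were higher. At 50 and 75 mg/kg H2-Ab1 on that first probe was at 0.82 and 0.76.

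Syt1, a calcium sensor of vesicle fusion, was at 0.70 (SE 0.21), but 4 further probes of the gene ran from 0.08 to 0.69. Slc25a48, a mitochondrial carrier, was at 0.68, Grik4, a kainate receptor subunit, at 0.62, Klhl21, an adaptor of a ubiquitin ligase active in mitosis, at 0.60, Itga9, an integrin alpha chain, at 0.58, and the zinc finger gene Zfp729a at 0.51, with further probes at 0.38 and 0.05 (SE 0.12). Klhl21 was also above the mean of the upper doses (0.35, unadjusted p = 0.042). It was 0.47 above 50 mg/kg (unadjusted p = 0.0209) and 0.23 above 75 mg/kg (unadjusted p = 0.224). The other genes of this paragraph were not at an unadjusted p under 0.05 against the mean of the upper doses. Klhl21 ran from 0.68 to 1.04 in the controls and from 1.19 to 1.92 at 25 mg/kg.

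Among the lower genes, Chka, the first enzyme of phosphatidylcholine synthesis, read 0.26, 0.13, 0.12, 0.97 and 0.83 in the controls and -0.62, -0.58, -0.10, -0.21 and -0.30 at 25 mg/kg. Its difference was -0.83 (SE 0.24, limma adjusted p = 0.636), a second probe gave -0.55, and it was lower than at the upper doses as well (-0.59, unadjusted p = 0.0111). Btg1, an antiproliferative gene, was at -0.73 (SE 0.19), with a second probe at -0.33. The RNA-binding protein gene Hnrnpc was at -0.56, the ephrin receptor gene Epha2 at -0.52 and Zmym3 at -0.49. Zmym3 ran from -0.37 to -0.05 in the controls and from -0.80 to -0.63 at 25 mg/kg, and a second probe gave -0.20 (SE 0.11). All 5 had the same sign at 50 and 75 mg/kg.

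Genes of BaP metabolism were read 3 days after the last dose. Of 8 present aryl hydrocarbon receptor targets, Tiparp, a feedback repressor of the receptor, had non-overlapping groups: -2.85, -2.94, -2.53, -2.67 and -2.52 in the controls and -2.33, -2.35, -1.86, -2.30 and -2.29 at 25 mg/kg, a difference of 0.48 (SE 0.13). Tiparp was at 0.39 and 0.54 at 50 and 75 mg/kg. Cyp1a1 was at 0.06 and was well above background on only 2 of 5 control and 3 of 5 exposed arrays, and Cyp1a2 was at 0.25. All 16 present targets of the nuclear receptors CAR and PXR were above 0, with a median of 0.38, and 3 of them, Cyp3a41a (0.56), Cyp2c29 (0.44) and Cyp2b9 (0.61), had an unadjusted p under 0.05. With the liver channel alone the median of that list was 0.14 and Cyp2c29 was at -0.12. Of 13 present NRF2 targets 1 was higher at an unadjusted p under 0.05, the glutathione transferase Gstm3 at 0.60 (SE 0.18). Of all genes 4.08% were higher at that level.

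Several lists typical of hepatocytes lay above 0 in the ratios and not in the liver channel alone. All 13 hepatocyte markers were higher by sign, with a median of 0.30, and 1 of them, Ass1 of the urea cycle, had an unadjusted p under 0.05. From the liver channel alone this median was -0.0058. The acute phase list likewise had a median of 0.31 in the ratios and -0.04 in the liver channel alone. The fatty acid synthesis list was at 0.24 in the ratios and 0.19 in the liver channel, with Fasn at 0.57 (SE 0.15) and on a second probe at 0.30, Thrsp at 0.53 (SE 0.18) and Acss2 at 0.55. Of 15 endothelial markers 8 were higher at an unadjusted p under 0.05, beside 4.08% of all genes, among them Icam2 (0.43), Eng (0.36), Kdr (0.39) and Cdh5 (0.81), with a median of 0.35. Their mean ran from -0.34 to 0.20 in the controls and from 0.18 to 0.61 at 25 mg/kg. Rasip1 is on this list and among the 8. The study lists it for the low dose from these same samples, so the count is not independent of that result. That count was 3 with scanner-processed signals, 2 with the liver channel alone, 2 on the 3 shared slides, 3 without control replicate 2, 5 without control replicate 5, and 5 or 4 without replicates 6 or 8 at 25 mg/kg.

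The DNA damage response was read from p53 targets. Of 27 present p53 targets 1 was higher and 1 lower than control at an unadjusted p under 0.05, beside 4.08% and 3.89% of all genes. The higher one was Tigar, a regulator of glycolysis, at 0.68 (SE 0.21). The lower one was Pmaip1, which encodes the apoptosis inducer NOXA, at -0.35 (SE 0.14), and at 0.050 in the liver channel alone. A second Tigar probe was at 0.16. Cdkn1a, the p21 cell cycle inhibitor, was at 0.08, Mdm2 at -0.02, Phlda3 at -0.04 and Bax at -0.06. Of 19 present genes of the mitotic cell cycle 0 had an unadjusted p under 0.05 in either direction, and 16 were below 0 with a median of -0.13.

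The remaining pathway lists gave few members at an unadjusted p under 0.05 against control, where 4.08% of all genes were higher and 3.89% lower. Of 19 sterol synthesis genes 2 were higher, Nsdhl at 0.51 (SE 0.15) and Tm7sf2 at 0.49 (SE 0.15), and the 5 exposed arrays of Tm7sf2 lay above all controls. Among 16 targets of PPAR alpha, the receptor that drives fatty acid oxidation, 2 were higher. One of them, Cidec, a lipid droplet protein, was at 0.57 (SE 0.20) and was also above the mean of the upper doses (0.39, unadjusted p = 0.0392). It was 0.47 above 50 mg/kg (unadjusted p = 0.0338) and 0.32 above 75 mg/kg (unadjusted p = 0.139). Of 19 acute phase proteins the fibrinogen chain Fgg was at 0.70 (SE 0.27) and Serpina3n at 0.26 (SE 0.12). In the liver channel alone Fgg was at 0.023 and Serpina3n at -0.20, and with slide position in the model Fgg was at 1.42.

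In the circadian clock list 2 of 15 were higher at an unadjusted p under 0.05, where 4.08% of all genes were higher and 3.89% lower. They were Per2 at 0.65 (SE 0.29), with a second probe at -0.19, and Tef at 0.70 (SE 0.32), with others at 0.08 and 0.27. Of 15 immediate early genes Atf3, a stress-induced transcription factor, was lower on every exposed array than on any control, at -0.20 (SE 0.09), and Ier3 was at -0.18, but at 0.086 in the liver channel alone and at 0.21 with slide position in the model. Of 14 genes of the endoplasmic reticulum stress and amino acid response Creld2 was at -0.41 (SE 0.18) and the chaperone Hyou1 at -0.51 (SE 0.26), the second without an unadjusted p under 0.05. Stellate cell markers had 2 of 12 higher, Dcn at 0.54 and Hgf at 0.43, and bile duct markers 1 of 9 lower, Epcam at -0.32.

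The contrast of 25 mg/kg with the mean of 50 and 75 mg/kg compares no control array, but the controls entered the spread of the 4-group fit. It called 2 of 27346 transcripts (0.00731%), both lower at 25 mg/kg. Ltc4s, the synthase of leukotriene C4 in macrophages and mast cells, was at -1.36 (SE 0.19) against the upper doses (limma adjusted p = 0.0185). It read 0.43, 0.54, 0.13, 0.09 and 0.74 at 25 mg/kg, from 0.44 to 1.57 at 50 mg/kg and from 1.86 to 3.15 at 75 mg/kg, with controls from -0.13 to 0.20. On the low-dose arrays 3 of 5 values were above all controls, and the difference from control was 0.35 (SE 0.22). Ltc4s was well above background on 3 of 5 control and 4 of 5 low-dose arrays.

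Endou, a uridine-specific endoribonuclease, was at -0.80 (SE 0.12) against the upper doses (limma adjusted p = 0.0347). Its values at 25 mg/kg, from -1.01 to -0.86, lay inside the range of the controls, from -1.12 to -0.76, and it reached 0.74 at 75 mg/kg. Marco, a scavenger receptor of Kupffer cells, had the largest difference with no overlap between the low-dose and the upper-dose arrays, at -1.46 (SE 0.25, limma adjusted p = 0.0854). Its log2 ratio was 3.58, 2.70, 2.74, 3.11 and 2.35 at 25 mg/kg, from 3.59 to 4.45 at 50 mg/kg, from 4.08 to 5.76 at 75 mg/kg and from 1.83 to 3.04 in the controls. Marco passed the threshold with slide as a fixed block (-1.67, limma adjusted p = 0.0139), and Endou and Ltc4s then did not (both 0.105). With slide as a random block all 3 passed. Both Endou and Ltc4s also lost their call when the fit was restricted to the arrays of the contrast, with the liver channel alone, and without replicate 6, 7, 8 or 9 at 25 mg/kg, 12 or 15 at 50 mg/kg or 18 at 75 mg/kg. Endou alone lost its call with scanner-processed signals, without background correction, with the deposited log2 ratios, and without replicate 10 at 25 mg/kg or 11 at 50 mg/kg.

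**Figure D5:**
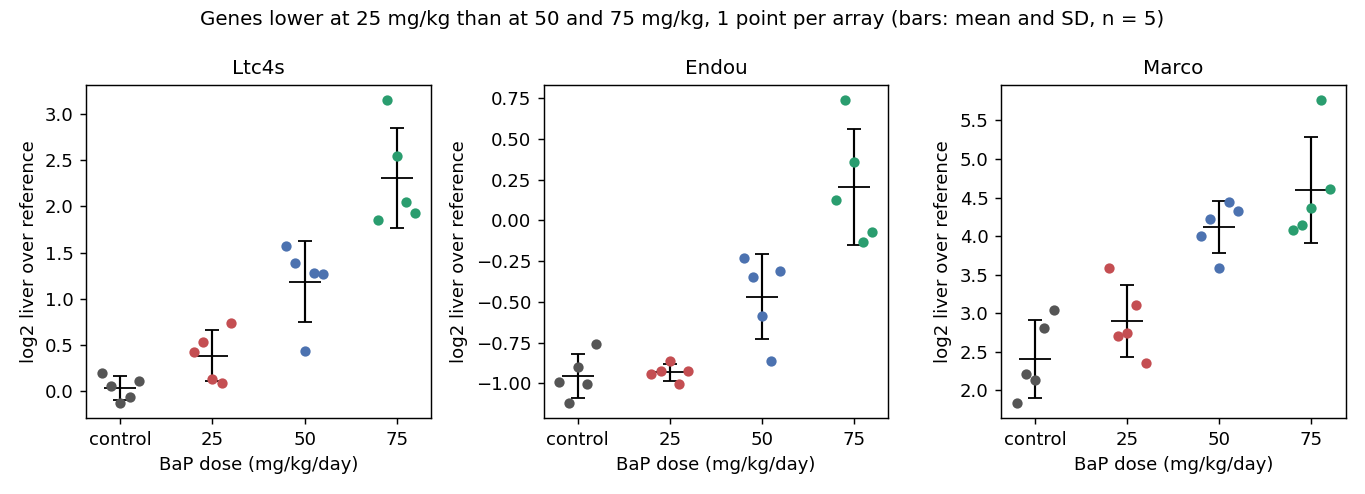
Log2 ratio of liver over reference (y axis) of Ltc4s, Endou and Marco on each of the 20 arrays, by BaP dose (x axis, mg/kg/day). Points are arrays and bars are the group mean and SD (n = 5). The arrays at 25 mg/kg sit among the controls for Endou, and 1 array of 50 mg/kg lies inside the low-dose range for Ltc4s and 1 for Endou, with 0 for Marco.

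By the same separation from the 10 upper-dose arrays, Nfe2, an erythroid and megakaryocyte transcription factor, was at -0.87, the PDZ and LIM domain gene Pdlim1 at -0.32, Prcp, a lysosomal peptidase, at -0.30 and the T-box gene Tbx2 at -0.27. A second Prcp probe was at -0.04 against the upper doses. Against control these 4 ran from -0.09 to 0.18. In the other direction Rpn1, a subunit of the oligosaccharyltransferase, was 0.27 higher at 25 mg/kg than at the upper doses, but its 2 further probes gave 0.05 and 0.11. No gene of this contrast other than Ltc4s and Endou passed the adjustment.

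The p53 target list held 12 of 27 members that were lower at 25 mg/kg than at the upper doses at an unadjusted p under 0.05 and 0 that were higher, beside 2.53% and 1.55% of all genes. In that contrast Cdkn1a was at -1.04, Ddit4l was at -0.91, Phlda3 at -0.70 and Ccng1 at -0.56. Of the 19 sterol synthesis genes 8 were lower and 0 higher, with Insig1 at -0.52 and Fdft1 at -0.49, and of the 15 immediate early genes 6 were lower and 0 higher, with Egr1 at -0.92 and Btg2 at -0.49. Against control the median of the sterol list was 0.04 and that of the immediate early list -0.10. The sterol count was 5 with scanner-processed signals, and the immediate early count was 3 without replicate 10 at 25 mg/kg.

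Against the mean of all 3 other groups, which asks whether the low dose stood apart from every other array, limma called 0 of 27346 transcripts (0%), with a smallest adjusted p of 0.989 and 1171 transcripts at an unadjusted p under 0.05. For 0 of them did the 5 low-dose arrays lie wholly above or wholly below the other 15 arrays.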

How the data were processed

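Liver RNA of 20 mice was hybridized against a universal reference, 1 two-color array per mouse. The spot and background intensities deposited by the authors are median pixel values from Feature Extraction, not normalized. A further pair of intensities per spot, as deposited, had been corrected for background and dye by that software. The log2 ratios deposited by the authors were LOWESS normalized within arrays, and whether background was subtracted first is not given in the sources used here. They correlated with the ratios computed here at 0.9937 to 0.9959, which settles their scale and direction, and their medians lay between -0.0399 and -0.0181. The authors removed 1 sample that they do not name, and all were kept here. The description of the series gives another value than the labels for the lowest dose, and the labels were followed.

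Median intensities were corrected by normexp (offset 50) and normalized by loess within arrays, with control spots and outlier spots given no weight, outliers were left out, and spots of a probe were averaged (45018 features, 43379 of them not controls, 41174 probes). Presence followed the methods of the study: liver signal above the trimmed mean (5%) plus 3 trimmed SDs of 153 negative control spots. One model of 4 groups was fitted by limma 3.58.1 in R 4.3.3 (statmod 1.5.0, and the package data.table, version 1.17.8) with Benjamini-Hochberg adjustment. Figures were drawn with Python 3.11.15, matplotlib 3.10.9 and numpy 2.4.6. The Fs test of the methods, other background corrections and scalings, filters, slide, slide position and array weights were alternatives. Recovery was tested on simulated data. Probes were named through RefSeq accessions (23375 probes with a symbol), and a gene of several probes is represented by its brightest present probe. Array number limits the precision.

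Genes named are the low-dose transcripts of the study, interferon genes at an unadjusted p under 0.05, up to 8 genes a side with the largest difference among those with non-overlapping groups at an unadjusted p under 0.01 (up to 5 a side against the upper doses), the 2 members of smallest p of each other pathway list, and called transcripts. A few genes that this rule or a list takes in are not reported here by name. Further list members are named as examples and were chosen after their values were seen. Members, 22 pathway lists and 12 marker lists were chosen with earlier results of these data known.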

Additional observations from a re-analysis of the deposited data

Results flagged for a closer look

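Single arrays stood apart from the rest of their group of 5 for 9 of the 145 combinations of named probe and group that were examined for the control and 25 mg/kg arrays, by a test of the gap to the nearest array against the whole range of the group. Chance gives about 1 such group in 20. At 25 mg/kg the array that stood apart read -0.93 for Oas1c, 0.19 for Prcp, -4.87 for Adam8, -1.86 for Tiparp, 5.16 for Thrsp, -3.59 for Ier3 and -3.05 for Aurka. Among the controls it read 0.36 for Itga9 and 9.87 for Cyp3a41a. For Oas1c, Tiparp and Adam8 the array that stood apart lay on the far side from the controls. The cause was not tested.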

How the results depend on the processing

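Against control, the count of called transcripts was 0 in the main analysis and in all 13 alternatives, and leaving out 1 array gave 0 to 2. Adamdec1 kept its sign at 1.09 to 2.32 over the alternatives (limma adjusted p 0.184 to 0.919) and at 1.14 to 1.55 when 1 array was left out. Igtp ranged from -1.15 to -0.89 and Isg15 from -1.05 to -0.82 when 1 array was left out, with both called only without control replicate 3. The count of interferon genes lower than control was 12 with slide position as a block and otherwise 16 to 26, and it was 14 to 24 when 1 array was left out. Against the upper doses, the count of called transcripts was 1 with scanner-processed signals, 1 without background correction, 1 with the deposited log2 ratios, 0 with the liver channel alone, 1 with slide as a fixed block, 10 with slide as a random block, 0 when only the arrays of the contrast were fitted, 7 with array weights and 4 with the Fs statistic, and it ranged from 0 to 6 when 1 array was left out. The interferon count in that contrast was 17 and 16 with slide as a fixed or random block, 19 with array weights, and 6 to 15 when 1 array was left out. Signs turned with the liver channel alone for Pmaip1 (0.050), Cyp2c29 (-0.12), Serpina3n (-0.20) and Ier3 (0.086), and with slide position as a block for Rnf213 (0.19), Uba7 (0.066), Rtp4 (0.018) and Ier3 (0.21). The causes were not tested. For 70 named genes, 872 of 893 values under alternatives kept their direction and side of the threshold. Only Ltc4s and Endou were called in the main analysis. For the other genes this means no more than the same sign and again no call. The slide position block could not be fitted to the contrasts with the upper doses, and for the contrast with all other groups the restriction to its own arrays is the main analysis. The fit on slides 1 to 3 and the counts of list members and named genes under each alternative were chosen after seeing the data. No paired analysis by replicate number was possible because the numbers of the labels run from 1 to 20 and no number is shared by groups, and arrays of a slide were compared through the slide blocks and the within-slide differences.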
